A study of Mus musculus with 24 samples.

Results

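Potassium channel genes were followed over 24 mouse brain arrays. They were taken as the genes whose symbol starts with Kcn, without Kcne2 and Kcnj13, and each was read from the probe set with the highest mean over all arrays. The rule found 82 genes, covered by 165 probe sets, of 18193 genes that have a probe set with exactly 1 symbol. Of the 82 genes, 60 passed the filter on dim probe sets and were tested.

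The mice came from a selection experiment that began by crossing inbred C57BL/6J with inbred A/J mice and then selected the descendants on contextual fear conditioning, a form of learning in which a mouse freezes in a place where it was shocked. The 4 groups hold 6 arrays each: amygdala of mice labelled high freezing, amygdala of mice labelled low freezing, hippocampus of high freezing mice and hippocampus of low freezing mice. All 24 arrays are of total RNA, and the mice of both freezing labels descend from the same strain cross. The labels give no age, sex, generation or time after conditioning, and it is not stated if an array was made from a single mouse or a pool. The p-values therefore reflect only how far arrays of a group spread, which may be technical.

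Potassium channels let potassium ions leave or enter the cell and so set the resting potential, shape the action potential and limit repetitive firing. Voltage-gated (Kv) channels open on depolarization, calcium- and sodium-activated channels follow the entry of those ions, inward rectifiers carry current near rest and often answer to G proteins or ATP, and two-pore domain channels carry background leak current. Auxiliary and silent subunits change the gating or placement of the pore subunits without forming a channel alone. In the hippocampus and amygdala these genes are known from the control of dendritic excitability, fast spiking, synaptic inhibition and potassium uptake by glia.

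All levels are linear intensity units as deposited. Differences and tests are on log2(intensity + 16), so a fold understates the change of a dim gene. Tests are two-sided limma tests over all 24 arrays with Benjamini-Hochberg adjustment over 27022 probe sets, and a gene is said to differ where its adjusted p is under 0.05. Levels of different genes are not set against each other, since probe sets differ in brightness.

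Potassium channel genes differed between the regions in both directions. Of the 60 tested, 43 (71.7%) passed the test, 17 of them higher and 26 lower in amygdala relative to hippocampus. The median log2 difference of all 60 was -0.16. Over 12468 genes read the same way, 56.3% passed, 31.7% higher and 24.6% lower, with a median of 0.04. The difference was at least 2-fold in 10 of the 60, against 6.93% of all genes. In 8 genes every amygdala array lay above every hippocampal array, and in 10 every one lay below, against 9.87% and 7.25% of all genes. For all 43 the sign was the same among the high freezing arrays and among the low freezing arrays.

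**Figure D1:**
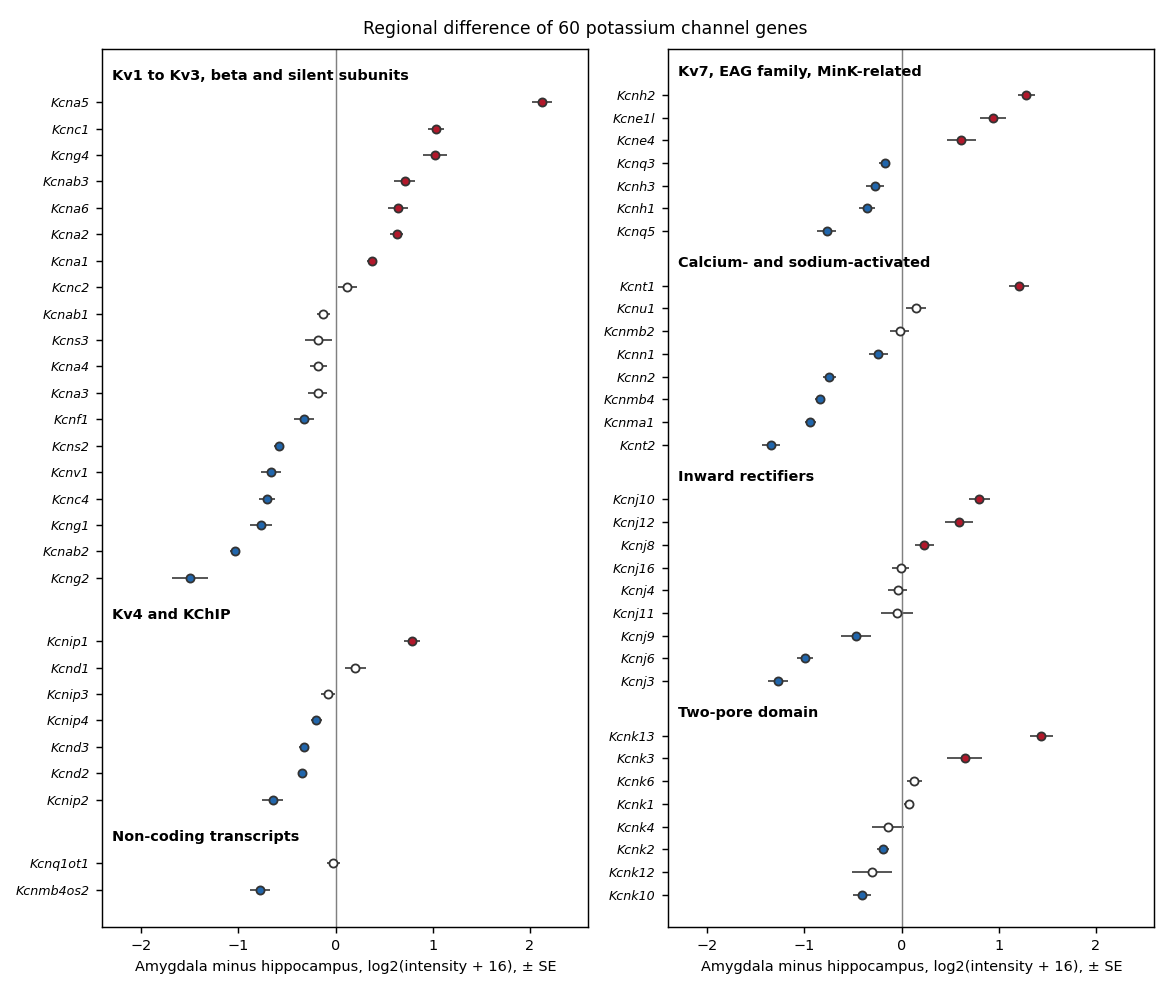
Difference of each of the 60 tested genes between amygdala and hippocampus on the log2(intensity + 16) scale, with its standard error, grouped by channel class (n = 12 arrays a region). Red points passed the limma test as higher in the amygdala (17 genes), blue points as lower (26 genes) and white points did not pass (17 genes).

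The amygdala and hippocampus samples also differed in their cell type markers, and in bulk tissue fewer cells of a type and less RNA per cell cannot be told apart. Among all genes, 31.7% were higher and 24.6% lower in the amygdala. Of 9 measured markers of dentate granule cells, 0 were higher and 9 lower in the amygdala, where the list summed to between 2063 and 2490 units an array, against 4127 to 4986 in the hippocampus (sums over every gene of a list that is on the array). Markers of the hippocampal CA fields were higher in 2 and lower in 7 of 9 cases (1867 to 2800 units in amygdala, 4210 to 5480 in hippocampus), and all 6 of excitatory forebrain neurons were lower (1842 to 3310 units in amygdala, 6122 to 8780 in hippocampus). The amygdala label met a mixed picture. Central amygdala and striatum markers were higher in 14 of 14 measured cases (8443 to 16843 units in amygdala, 1947 to 2395 in hippocampus), while of 7 basolateral amygdala and claustrum markers 3 were higher and 3 lower (742 to 1756 units in amygdala, 2455 to 3176 in hippocampus).

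Against the same shares, and 56.3% called in either direction among all genes, many markers of non-neuronal cells were also higher in the amygdala arrays. This held for 11 of 11 oligodendrocyte markers (38968 to 53452 units in the amygdala against 14876 to 19998 in the hippocampus), 8 of 8 choroid plexus markers (14336 to 20893 units in amygdala, 1909 to 13522 in hippocampus), 7 of 10 microglial markers (3608 to 5152 units in amygdala, 2946 to 3670 in hippocampus) and 6 of 10 of endothelium and pericytes (3118 to 3897 units in amygdala, 2466 to 3118 in hippocampus). Astrocyte markers were higher in 7 and lower in 2 of 11 cases (15348 to 18578 units in amygdala, 14365 to 16788 in hippocampus). GABA neuron markers were higher in 5 and lower in 1 of 6 cases (10340 to 12758 units in amygdala, 5956 to 6562 in hippocampus), and the list for thalamus, hypothalamus and midbrain had 6 higher and 0 lower of 8 (692 to 2234 units in amygdala, 245 to 364 in hippocampus). None of these genes was at 0 on any array. Between high and low freezing, 0 of 109 measured markers passed the limma test in each region, with 17 at an unadjusted p under 0.05 in the amygdala and 15 in the hippocampus, against 10.0% and 12.1% of all genes. In high minus low freezing amygdala, 0 of 14 central amygdala and striatum markers were above 0 (median log2 difference -0.25). All 7 basolateral amygdala and claustrum markers (median 0.08) and all 6 of excitatory forebrain neurons (median 0.14) were above 0. Every other marker list had genes on both sides of 0 there. In high minus low freezing hippocampus, all 8 choroid plexus markers were above 0 (median 0.20), and every other marker list had genes on both sides. Among these, 11 of 14 central amygdala and striatum markers (median 0.14) and 1 of 10 microglial markers (median -0.09) were above 0. The part of these markers in the regional or freezing differences of channel genes was not tested.

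Among the Kv1 to Kv3 channels with their beta and silent subunits, 22 genes of which 19 were tested, 7 were higher and 7 lower in the amygdala, against 31.7% and 24.6% of all genes. Of 6 tested Shaker (Kv1) genes, 4 were higher and 0 lower. The largest of the 60 differences belonged to Kcna5, which encodes Kv1.5, a delayed rectifier known from heart muscle. It had a lowest, median and highest intensity of 90.1, 164 and 208 units in the amygdala, against 17.0, 23.9 and 34.9 in the hippocampus. Every amygdala array lay above every hippocampal one, and the level was 4.36-fold higher (log2 difference 2.12, SE 0.103, adjusted p = 1.46e-16). The 4 groups averaged 153 ± 40.7 in high freezing and 174 ± 32.4 in low freezing amygdala, and 25.6 ± 6.08 in high freezing and 23.6 ± 4.13 in low freezing hippocampus (SD, n = 6 each). The hippocampal level was dim, and the log2 difference lay between 1.34 and 2.67 over the processing alternatives.

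The other Kv1 genes that passed showed smaller shifts. Kcna2 encodes Kv1.2, which with Kv1.1 lines the axon beside the nodes of Ranvier, and had 775, 992 and 1321 units in the amygdala against 571, 627 and 695 in the hippocampus (lowest, median and highest). It too was higher in every amygdala array (1.55-fold, log2 difference 0.63, SE 0.0659, adjusted p = 2.74e-09). Kcna6 (Kv1.6) and Kcna1 (Kv1.1) had log2 differences of 0.65 and 0.37, and some of their arrays overlapped between the regions. Kcna3 (Kv1.3, a channel of lymphocytes and microglia) and Kcna4 (Kv1.4, an A-type channel) both had log2 differences of -0.18 and did not pass.

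The Kv3 genes, whose channels close quickly and allow fast spiking, split. Kcnc1 (Kv3.1, the channel typical of fast-spiking interneurons) had 695, 943 and 1302 units in the amygdala, against 392, 475 and 522 in the hippocampus, with no overlap, and was 2.04-fold higher (log2 difference 1.03, SE 0.0818, adjusted p = 7.97e-12). Kcnc4 (Kv3.4) went the other way, with 76.4, 121 and 149 units in the amygdala against 163, 203 and 246 in the hippocampus and every amygdala array below the hippocampal ones (log2 difference -0.70). Kcnc2 (Kv3.2) had 477, 678 and 1200 units in the amygdala against 558, 623 and 759 in the hippocampus and did not pass (log2 difference 0.12, SE 0.0988, adjusted p = 0.328). The 3 genes of this small family thus had 3 different outcomes.

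Silent subunits, which reach the membrane only in company of Kv2 subunits, were lower in 5 of 7 tested genes and higher in 1. Among all genes, 24.6% were lower and 31.7% higher. Kcng2 (Kv6.2) had 7.22, 31.6 and 74.6 units in the amygdala against 68.3, 119.9 and 151 in the hippocampus, 2.81-fold lower (log2 difference -1.49, SE 0.185, adjusted p = 6.87e-08). Only the ends of the 2 ranges overlapped. Kcng1 (Kv6.1) had 37.8, 78.9 and 115 units in the amygdala against 102, 139 and 194 in the hippocampus and was 1.70-fold lower (log2 difference -0.77, SE 0.113, adjusted p = 1.44e-06). Kcng4 (Kv6.4), of the same subfamily, was the higher one, with 41.8, 74.0 and 109 units in the amygdala against 10.0, 30.2 and 49.9 in the hippocampus (2.03-fold, log2 difference 1.02, SE 0.125, adjusted p = 5.06e-08). Kcnf1 (Kv5.1), Kcnv1 (Kv8.1) and Kcns2 (Kv9.2) were lower by log2 differences of -0.33, -0.66 and -0.59, and Kcns3 (Kv9.3) did not pass (-0.18).

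The beta subunits bind to Kv1 channels from the cytoplasm and had 3 outcomes as well. Kcnab2 (Kvbeta2) had 760.0, 831 and 1125 units in the amygdala, against 1531, 1769 and 1878 in the hippocampus. No amygdala array came near the hippocampal range, and the level was 2.04-fold lower (log2 difference -1.03, SE 0.0502, adjusted p = 1.46e-16), opposite in sign to the Kv1 genes that passed. Kcnab3 (Kvbeta3) was higher (log2 difference 0.71) and Kcnab1 (Kvbeta1), with -0.13, did not pass.

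**Figure D2:**
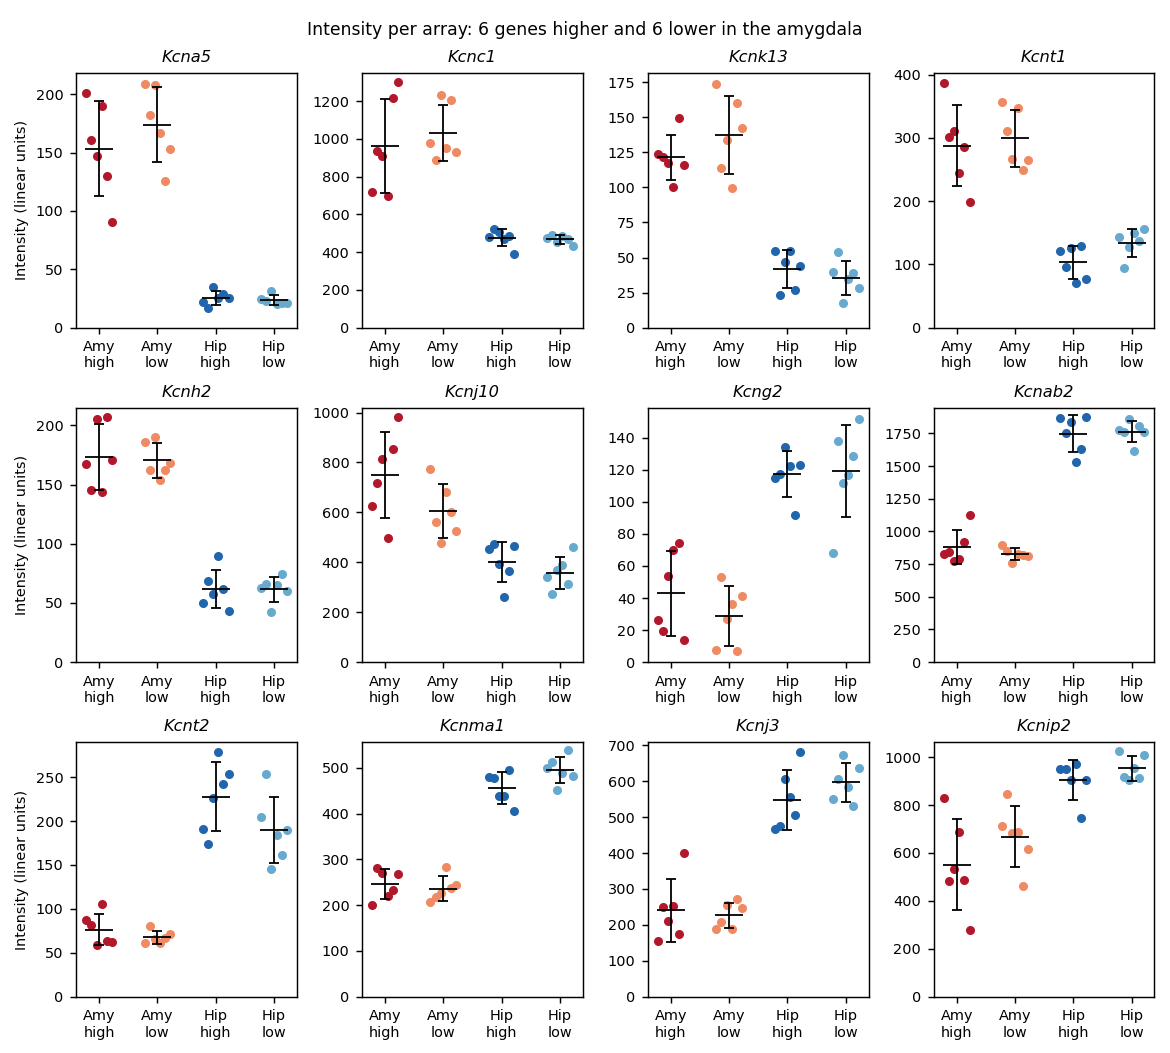
Linear intensity of 12 genes on each array (points), with the mean and SD of each group of 6, in high and low freezing amygdala (Amy) and high and low freezing hippocampus (Hip). Read row by row, the first 6 genes are higher in the amygdala, among them Kcna5 at 4.36-fold, and the last 6 are lower, among them Kcnt2 at 2.54-fold. In each gene the freezing groups of 1 region lie closer together than the regions.

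Of the 7 genes for A-type channels of the Kv4 class and their KChIP partners, 4 were lower and 1 was higher in the amygdala, against 24.6% lower and 31.7% higher among all genes; the class itself was not tested. Kcnd2 encodes Kv4.2, which carries the A-type current of hippocampal dendrites, and had 806, 920.4 and 1077 units in the amygdala, against 1066, 1199 and 1291 in the hippocampus. The ranges touched only at their ends, and the gene was 1.27-fold lower (log2 difference -0.34, SE 0.0466, adjusted p = 3.15e-07). Kcnd3 (Kv4.3) had 480.3, 586 and 649 units in the amygdala, against 648, 731 and 816 in the hippocampus, again with a narrow overlap (log2 difference -0.33, SE 0.0490, adjusted p = 1.58e-06). Kcnd1 (Kv4.1) did not pass (log2 difference 0.20).

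The KChIP genes encode calcium-binding proteins that bring Kv4 channels to the membrane and alter their inactivation. Kcnip2 (KChIP2) had 279, 649.9 and 845 units in the amygdala, against 745, 934 and 1025 in the hippocampus. Its amygdala arrays spread widely, and on average it was 1.57-fold lower (log2 difference -0.65, SE 0.109, adjusted p = 1.05e-05). Kcnip1 (KChIP1), which is typical of interneurons, was the higher one, with 177, 222 and 290.3 units in the amygdala, against 93.6, 124 and 141 in the hippocampus. There was no overlap, and the fold was 1.72 (log2 difference 0.79, SE 0.0782, adjusted p = 9.52e-10). Kcnip4 was lower by a small amount (log2 difference -0.20), and Kcnip3, also known as the transcriptional repressor DREAM, did not pass (-0.07).

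In the class of Kv7, EAG-type and MinK-related genes, all 7 tested of 13 passed, 3 higher and 4 lower, against 56.3% of all genes. Kcnh2 encodes ERG1, whose slow current damps repeated firing. It had 143, 168 and 207 units in the amygdala, against 42.3, 62.2 and 89.8 in the hippocampus, without overlap, and was 2.44-fold higher (log2 difference 1.28, SE 0.0870, adjusted p = 2.39e-13). Kcne1l and Kcne4, small single-pass subunits that modify Kv channels, were higher too. Kcne1l had 48.0, 67.3 and 84.1 units in the amygdala, against 9.64, 26.7 and 51.8 in the hippocampus (log2 difference 0.94, SE 0.133, adjusted p = 6.63e-07), and Kcne4 had 24.9, 48.9 and 75.8 in the amygdala against 4.70, 31.4 and 45.6 in the hippocampus (log2 difference 0.61, SE 0.149, adjusted p = 0.000989). Both were dim, and their ranges overlapped.

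Kv7 subunits form the M-current, which acetylcholine shuts off. Kcnq5 had 178, 282 and 453 units in the amygdala, against 356, 468 and 561 in the hippocampus, a difference of 1.71-fold downward (log2 difference -0.77, SE 0.0987, adjusted p = 1.18e-07). Kcnq3 was lower by far less (log2 difference -0.17). The EAG-type genes Kcnh1 and Kcnh3 were lower by log2 differences of -0.36 and -0.27, opposite in sign to Kcnh2 of the same superfamily. Kcnq5 and Kcnh1 each have another probe set of the other sign.

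The calcium- and sodium-activated channels were lower in 5 and higher in 1 of 8 tested genes, against 24.6% and 31.7% of all genes. The 2 genes for sodium-activated (Slo2) channels, whose products can assemble together, moved in opposite directions. Kcnt1 (Slack) had 199, 294 and 386 units in the amygdala, against 71.0, 127 and 155 in the hippocampus, and was 2.31-fold higher (log2 difference 1.21, SE 0.101, adjusted p = 2.39e-11). Kcnt2 (Slick) had 58.9, 65.7 and 105 units in the amygdala, against 146, 198 and 279 in the hippocampus, and was 2.54-fold lower (log2 difference -1.34, SE 0.0903, adjusted p = 2.03e-13). In neither gene did any array of 1 region reach the range of the other. Kcnt1 averaged 288 ± 63.6 and 299 ± 45.6 units in high and low freezing amygdala, and 103 ± 25.8 and 134 ± 22.1 in high and low freezing hippocampus (SD, n = 6 each). Kcnt2 averaged 76.5 ± 18.1 and 67.7 ± 7.52 units in high and low freezing amygdala, and 228 ± 39.4 and 189.9 ± 37.6 in high and low freezing hippocampus.

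The large-conductance (BK) channel was lower in the amygdala in its pore and in its neuronal auxiliary subunit. Kcnma1, the BK pore, had 201, 235 and 284 units in the amygdala, against 405, 480.4 and 539 in the hippocampus (1.92-fold lower, log2 difference -0.94, SE 0.0566, adjusted p = 1.74e-14). Kcnmb4, the brain beta4 subunit, which slows BK gating, had 348, 387 and 449 units in the amygdala, against 590.4, 731 and 801 in the hippocampus (1.79-fold lower, log2 difference -0.84, SE 0.0529, adjusted p = 4.76e-14). Neither gene overlapped between the regions. Kcnmb2, another beta subunit, had a log2 difference of -0.02 and did not pass. Kcnmb4os2, a non-coding transcript opposite the Kcnmb4 gene, was lower as well (1.72-fold, log2 difference -0.78, SE 0.101, adjusted p = 1.39e-07).

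The small-conductance (SK) channels, which calcium opens after spikes, were lower too in the 2 genes tested. Kcnn2 (SK2) had 213, 266 and 372 units in the amygdala, against 374, 467 and 532 in the hippocampus, with every amygdala array below (1.67-fold, log2 difference -0.74, SE 0.0711, adjusted p = 4.6e-10). Kcnn1 (SK1) had 34.0, 48.0 and 68.3 units in the amygdala against 43.1, 61.9 and 89.1 in the hippocampus and an adjusted p of 0.0341 with limma. That call was lost in 12 of the other settings, 10 of which left out 1 array. Kcnu1, of the Slo3 type known from sperm, did not pass (log2 difference 0.15).

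Of 9 tested inward rectifiers, 3 were higher and 3 lower in the amygdala, against 31.7% and 24.6% of all genes. The genes of the G protein-gated (GIRK) channels, which carry slow postsynaptic inhibition, were the 3 lower ones. Kcnj3 (GIRK1) had 155, 229 and 399 units in the amygdala, against 466, 571 and 682 in the hippocampus, and was 2.41-fold lower (log2 difference -1.27, SE 0.101, adjusted p = 8.19e-12). Kcnj6 (GIRK2) had 22.8, 31.4 and 46.8 units in the amygdala, against 60.5, 81.1 and 101 in the hippocampus (1.99-fold lower, log2 difference -0.99, SE 0.0831, adjusted p = 2.72e-11). In both, all amygdala arrays lay below all hippocampal ones. Kcnj9 (GIRK3) varied more, with 145, 221 and 395 units in the amygdala against 170.4, 340.5 and 593 in the hippocampus, and overlapped between the regions (1.38-fold lower, log2 difference -0.47, SE 0.158, adjusted p = 0.0145).

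Kcnj10 was the clearest of the higher ones. It encodes Kir4.1, which takes up potassium in astrocytes and oligodendrocytes, and had 477, 655 and 983 units in the amygdala, against 261, 378 and 473 in the hippocampus, with no overlap (1.74-fold, log2 difference 0.80, SE 0.104, adjusted p = 1.59e-07). Its 4 groups averaged 749 ± 172 and 604 ± 109 units in high and low freezing amygdala, and 401 ± 81.1 and 357 ± 65.2 in high and low freezing hippocampus (SD, n = 6 each). Kcnj12 (Kir2.2) had 24.2, 34.6 and 48.5 units in the amygdala against 3.06, 21.4 and 34.9 in the hippocampus, dim in both regions (log2 difference 0.59, SE 0.144, adjusted p = 0.000909). Its hippocampal median lay under 23.35 units, the lowest mean intensity of any probe set that passed the dim filter. The amygdala arrays raised the mean that the filter used. Kcnj8, the Kir6.1 pore of vascular ATP-sensitive channels, had 26.2, 38.0 and 46.9 units in the amygdala against 11.7, 33.1 and 41.0 in the hippocampus. It was at the edge of the threshold, with a limma adjusted p of 0.0476 that rose above 0.05 in 21 of the other settings. Kcnj11 (Kir6.2), Kcnj4 (Kir2.3) and Kcnj16 (Kir5.1) did not pass, with log2 differences of -0.05, -0.04 and -0.01.

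Of 8 tested two-pore domain genes, 2 were higher and 2 lower in the amygdala, a share no larger than the 56.3% called among all genes. Kcnk13 encodes THIK-1, the leak channel of microglia, and had 99.4, 123 and 174 units in the amygdala, against 17.4, 39.3 and 54.9 in the hippocampus. The ranges were far apart, and the level was 2.71-fold higher (log2 difference 1.44, SE 0.115, adjusted p = 1.02e-11). Kcnk3 (TASK-1, closed by acid) had 14.9, 63.6 and 91.4 units in the amygdala, against 5.49, 39.2 and 62.6 in the hippocampus, a wide spread in both (1.57-fold higher, log2 difference 0.65, SE 0.181, adjusted p = 0.00332). The stretch-sensitive Kcnk2 (TREK-1) and Kcnk10 (TREK-2) were both lower, by log2 differences of -0.19 and -0.40. Kcnk1, Kcnk4, Kcnk6 and Kcnk12 did not pass, with log2 differences between -0.31 and 0.13. The imprinted non-coding transcript Kcnq1ot1 did not pass either (-0.02).

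The 22 genes below the filter on dim probe sets were not tested. They are Kcna7, Kcns1 and Kcnv2 among the Kv1 to Kv3 class, Kcnq1, Kcnh5, Kcnh7, Kcnh8, Kcne1 and Kcne3 among the Kv7 and EAG class, Kcnmb1, Kcnn3 and Kcnn4 among the calcium-activated, Kcnj1, Kcnj2, Kcnj5, Kcnj14 and Kcnj15 among the inward rectifiers, Kcnk5, Kcnk7, Kcnk15 and Kcnk16 among the two-pore channels, and the non-coding Kcnmb4os1. All 7 genes of the Kv4 and KChIP class passed the filter.

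Many channel genes have more than 1 probe set, and these mostly ran together. For 23 of the 43 genes that passed, 40 other probe sets were above the filter, and 35 of them had the sign of the brightest one, 32 of which passed the limma test too. No probe set of the other sign passed. The 5 genes with a probe set of the other sign were Kcna2, Kcnc1, Kcnh1, Kcnn1 and Kcnq5, and those probe sets had limma adjusted p between 0.218 and 0.995. For Kcna2, Kcnc1 and Kcnq5 another probe set passed with the sign of the brightest. As an alternative, all probe sets of a gene were averaged, also those below the filter. The other probe set of Kcng1 had a mean of only 4.15 units over all arrays, and 1 other of Kcnd2 had 4.08. Such averaging brought several log2 differences down by more than 1.5 times without changing their sign. Kcnc1 was then at 0.39, against 1.03 at the brightest, Kcna2 at 0.23, Kcnq5 at -0.37, Kcng1 at -0.39, Kcnip1 at 0.45, Kcnma1 at -0.59, Kcnd2 at -0.21 and Kcnj9 at -0.27, all of which still passed. Kcnh1 at -0.18 and Kcnn1 at -0.084 no longer passed.

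**Figure D3:**
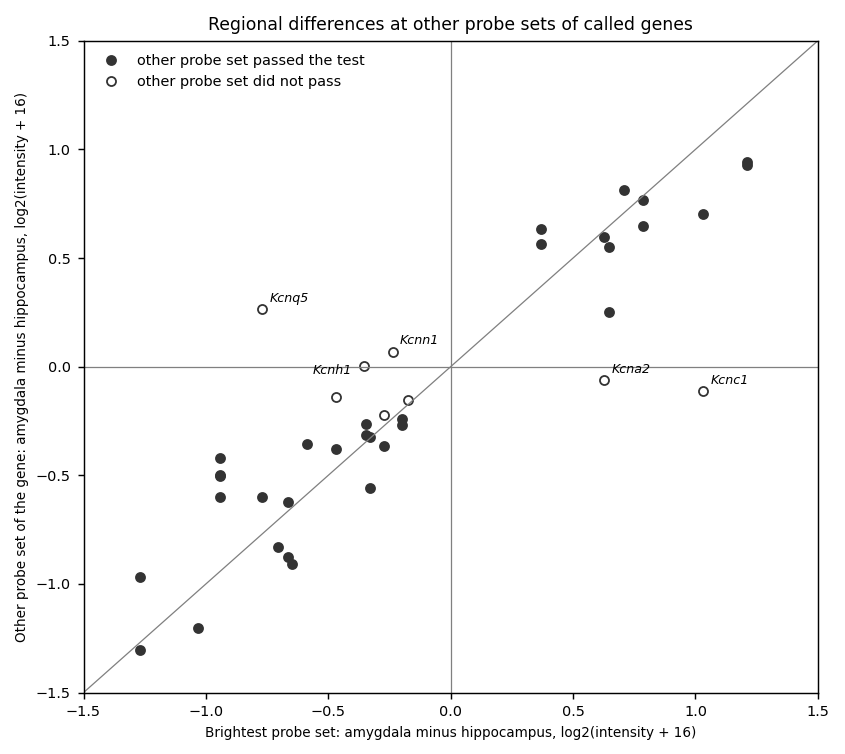
Regional difference at the 40 other probe sets of called genes (vertical) against that at the brightest probe set of the same gene (horizontal), both amygdala minus hippocampus on the log2(intensity + 16) scale. The line marks equal values. Filled points passed the limma test, and the 5 named points lie on the other side of 0.

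Some channel genes are neighbours in the genome, and neighbours did not always move together. On chromosome 6, Kcna5, Kcna1 and Kcna6 lie next to each other and were all higher in the amygdala. On chromosome 1, Kcnj10 and Kcnj9 lie next to each other with no protein-coding gene between them, and the glial Kcnj10 was 1.74-fold higher while the neuronal Kcnj9 was 1.38-fold lower. The 250 bases before the start of 4 genes are given: Kcna5 and Kcnt2, the largest difference in each direction among genes with 1 window that can be shown, and this adjacent pair. They are RefSeq sequences of assembly GRCm38.p6, written along each gene, with capitals marking a GC box (GGGCGG on either strand) or a TATAAA.

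Kcna5, minus strand, chr6:126535556-126535805: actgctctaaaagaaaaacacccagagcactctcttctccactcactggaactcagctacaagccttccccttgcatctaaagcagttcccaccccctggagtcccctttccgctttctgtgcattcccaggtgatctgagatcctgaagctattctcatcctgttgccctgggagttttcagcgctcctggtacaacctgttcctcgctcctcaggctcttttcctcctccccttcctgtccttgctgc

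Kcnt2, plus strand, chr1:140245468-140245717: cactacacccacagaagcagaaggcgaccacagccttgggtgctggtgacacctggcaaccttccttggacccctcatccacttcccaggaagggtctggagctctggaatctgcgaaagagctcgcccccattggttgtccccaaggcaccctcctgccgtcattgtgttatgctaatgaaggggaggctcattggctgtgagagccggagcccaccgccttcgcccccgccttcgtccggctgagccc

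Kcnj10, plus strand, chr1:172340960-172341209: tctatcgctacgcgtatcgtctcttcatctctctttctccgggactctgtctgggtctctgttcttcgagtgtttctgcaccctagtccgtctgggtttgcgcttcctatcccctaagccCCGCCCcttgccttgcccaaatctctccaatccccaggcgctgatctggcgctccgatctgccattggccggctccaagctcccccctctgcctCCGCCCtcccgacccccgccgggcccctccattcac

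Kcnj9, minus strand, chr1:172329323-172329572: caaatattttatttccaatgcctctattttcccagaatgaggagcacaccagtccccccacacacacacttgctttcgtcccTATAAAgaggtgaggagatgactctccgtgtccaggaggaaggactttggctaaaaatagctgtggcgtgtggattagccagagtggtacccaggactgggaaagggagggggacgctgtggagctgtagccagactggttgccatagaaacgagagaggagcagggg

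The pair on chromosome 1 differs in base composition in these windows. The Kcnj10 window holds 2 GC boxes, 0 TATAAA, 17 CpG and 62% G or C, and the Kcnj9 window holds 0 GC boxes, 1 TATAAA, 5 CpG and 52% G or C. The windows of Kcna5 and Kcnt2 hold neither motif and no TGACGTCA, the cyclic AMP response element. Both strands were searched for the 3 motifs, and none of the matches printed overlap. Of the 82 genes, 62 matched a RefSeq promoter entry, with 86 windows in all, and 45.35% of these held a GC box, against 32.74% of all 32851 windows. TATAAA was in 2.326% of the channel gene windows against 12.37% of all, and TGACGTCA in 0 of 86 against 1.546%. A GC box was in 5 of 15 windows of genes higher in the amygdala and in 12 of 29 windows of genes lower there. These are counts of letters in a window, not sites of binding.

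Proteins that assemble with potassium channels or place them were looked at in a list that also holds others, such as Fgf13 and Hcn2. All are called partner genes here. Of the 32 genes listed, 24 were measured. Of these 10 were higher and 8 lower in the amygdala (median log2 difference 0.09), against 31.7% and 24.6% of all genes. Cntn2 (log2 difference 1.205 when its probe sets are averaged), a cell adhesion protein that holds Kv1 channels beside the node of Ranvier, averaged 522 ± 88.5 units in amygdala and 134 ± 18.4 in hippocampus (SD over 12 arrays each) and was 3.58-fold higher (log2 difference 1.84, SE 0.0799, adjusted p = 1.08e-17). Kcna1, Kcna2 and the oligodendrocyte markers were higher as well. Dpp10, an auxiliary subunit of Kv4 channels, averaged 613 ± 57.2 units in amygdala and 269 ± 37.9 in hippocampus and was 2.21-fold higher (log2 difference 1.15, SE 0.0626, adjusted p = 2e-15), while Kcnd2 and Kcnd3 were lower.

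The other partner genes with large shifts lay on both sides. Fgf13, an intracellular protein that binds voltage-gated sodium channels, averaged 1566 ± 126 units in the amygdala, against 3483 ± 194 in the hippocampus, 2.22-fold lower (log2 difference -1.15, SE 0.0426, adjusted p = 3.74e-19). Lgi1, a secreted protein that acts on Kv1 channels at axon terminals, averaged 697 ± 98.2 units in amygdala and 1412 ± 75.1 in hippocampus, 2.02-fold lower (log2 difference -1.01, SE 0.0603, adjusted p = 1.37e-14). Hcn2, a pacemaker channel, was 1.91-fold higher (log2 difference 0.94, SE 0.105, adjusted p = 1.01e-08). Sgk1, a hormone-induced kinase that raises channel number at the membrane, was 1.84-fold higher (log2 difference 0.88, SE 0.116, adjusted p = 2.08e-07). In each region, 0 of the 24 partner genes passed the limma test between high and low freezing, and 3 had an unadjusted p under 0.05, near the 10.0% of all genes in the amygdala and 12.1% in the hippocampus.

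Between high and low freezing mice, no potassium channel gene passed the test in either region. In the amygdala, 0 of 60 passed with limma, against 0.0561% of all genes, and 7 had an unadjusted p under 0.05, against 10.0% of all genes. The median difference was 0.01 on the log2 scale, and 31 of 60 genes were above 0. In the hippocampus 0 of 60 passed, against 0.0321% of all genes, and 3 had an unadjusted p under 0.05, against 12.1%. The median was 0.03, with 34 of 60 above 0. The arrays of the 2 labels did not overlap for 1 gene in the amygdala and 0 in the hippocampus, against 0.545% and 0.722% of all genes. Log2 standard deviations within groups ran from 0.112 to 0.568 over the 60 genes, with a median of 0.233, against a median of 0.178 over all genes.

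**Figure D4:**
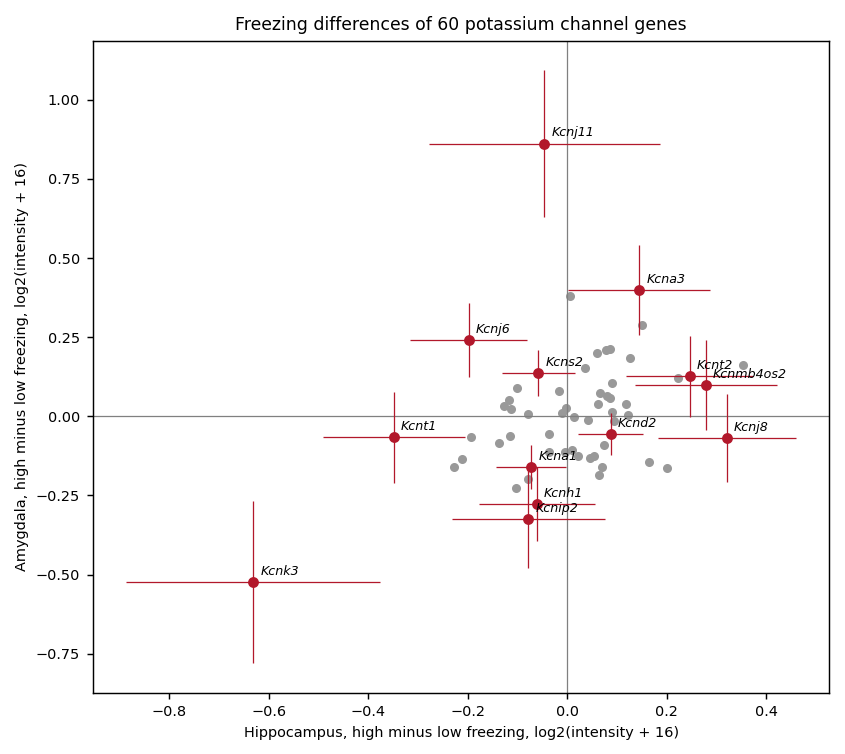
High minus low freezing difference in the amygdala (vertical) against that in the hippocampus (horizontal) for the 60 genes, on the log2(intensity + 16) scale. Red points with standard errors are the genes with the smallest p in a freezing comparison or the interaction, and grey points are the others; Kcnj11 is the highest point, at 0.86 in the amygdala.

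Read at the brightest probe sets, the smallest p in the amygdala belonged to Kcnj11, the Kir6.2 pore of ATP-sensitive channels, which couple firing to the energy state of the cell. It had 114, 231 and 348 units in high freezing amygdala (lowest, median and highest of 6 arrays), against 71.2, 124 and 173 in low freezing amygdala. The high freezing arrays lay mostly above, with some overlap. The difference was 1.82-fold (log2 difference 0.86, SE 0.231, adjusted p = 0.132) and did not pass. In the hippocampus high and low freezing mice averaged 177 ± 69.1 and 177 ± 48.9 units (SD, n = 6 each), and the regional log2 difference was 0.41 in high freezing and -0.50 in low freezing mice. Over the alternatives the amygdala difference ran from 0.45 to 1.04, and its adjusted p from 0.094 to 0.285. Its other probe set is below the filter. The gene next to it, Abcc8, whose SUR1 protein completes the channel, had freezing differences of -0.02 in both regions; it is named here after its values were seen.

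Kcna3 was the gene whose amygdala groups did not overlap. It had 29.1, 36.3 and 60.4 units in high freezing amygdala, against 22.0, 24.5 and 27.7 in low freezing amygdala, where it stood close to the filter on dim probe sets. The difference was 1.32-fold and did not pass (log2 difference 0.40, SE 0.142, adjusted p = 0.286), and the highest value was that of 1 array apart from its group. The 10 microglial markers had a median log2 difference of -0.12 between high and low freezing amygdala, with 3 above 0.

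The remaining genes of the 5 smallest p in the amygdala had lower levels in high freezing mice and did not pass. Kcnh1 had 192, 275 and 377 units in high against 235, 352 and 400.2 in low freezing mice (log2 difference -0.28, SE 0.116, adjusted p = 0.373), Kcna1 had 1494, 1642 and 1884 in high against 1609, 1890 and 2162 in low freezing mice (log2 difference -0.16, SE 0.0698, adjusted p = 0.394), and Kcnip2 had 279, 510.5 and 831 in high against 461, 687 and 845 in low freezing mice (log2 difference -0.32, SE 0.154, adjusted p = 0.452). All 3 overlapped widely. Among the other probe sets above the filter, named after their values were seen, 1 of Kcnk1 (TWIK-1) had a log2 difference of 0.39 with a limma adjusted p of 0.122, smaller than that of Kcnj11, against 0.11 at its brightest probe set. Another of Kcna6 was at 0.40 (limma adjusted p = 0.213), opposite in sign to the -0.16 of its brightest. Neither passed. Without array 12 of the high freezing amygdala the differences of Kcnh1 and Kcnip2 were -0.18 and -0.15.

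In the hippocampus the smallest p at the brightest probe sets belonged to Kcnk3. It had 5.49, 22.6 and 52.6 units in high freezing hippocampus, against 27.5, 46.2 and 62.6 in low freezing hippocampus, and did not pass (log2 difference -0.63, SE 0.255, adjusted p = 0.31). The ranges overlapped. The amygdala difference of Kcnk3 had the same sign, with 14.9, 49.4 and 89.2 units in high freezing against 63.6, 73.5 and 91.4 in low freezing mice (log2 difference -0.52, SE 0.255, adjusted p = 0.465). Of Kcnt1, 71.0, 108 and 129.6 units were found in high freezing hippocampus, against 94.2, 140.1 and 155 in low freezing hippocampus (log2 difference -0.35, SE 0.143, adjusted p = 0.318). Kcnj8 had 24.2, 36.0 and 41.0 units in high against 11.7, 24.9 and 39.7 in low freezing hippocampus (log2 difference 0.32, SE 0.139, adjusted p = 0.35). Abcc9, the gene next to Kcnj8 whose SUR2 protein completes the vascular ATP-sensitive channel, had a log2 difference of 0.32 there with a limma adjusted p of 0.198; it too is named after its values were seen. Kcnmb4os2 and Kcnt2 followed with log2 differences of 0.28 and 0.25, and none of these passed. Without 1 array the difference of Kcnj8 was 0.21 (low freezing array 3 left out) and that of Kcnmb4os2 0.19 (high freezing array 9 left out).

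**Figure D5:**
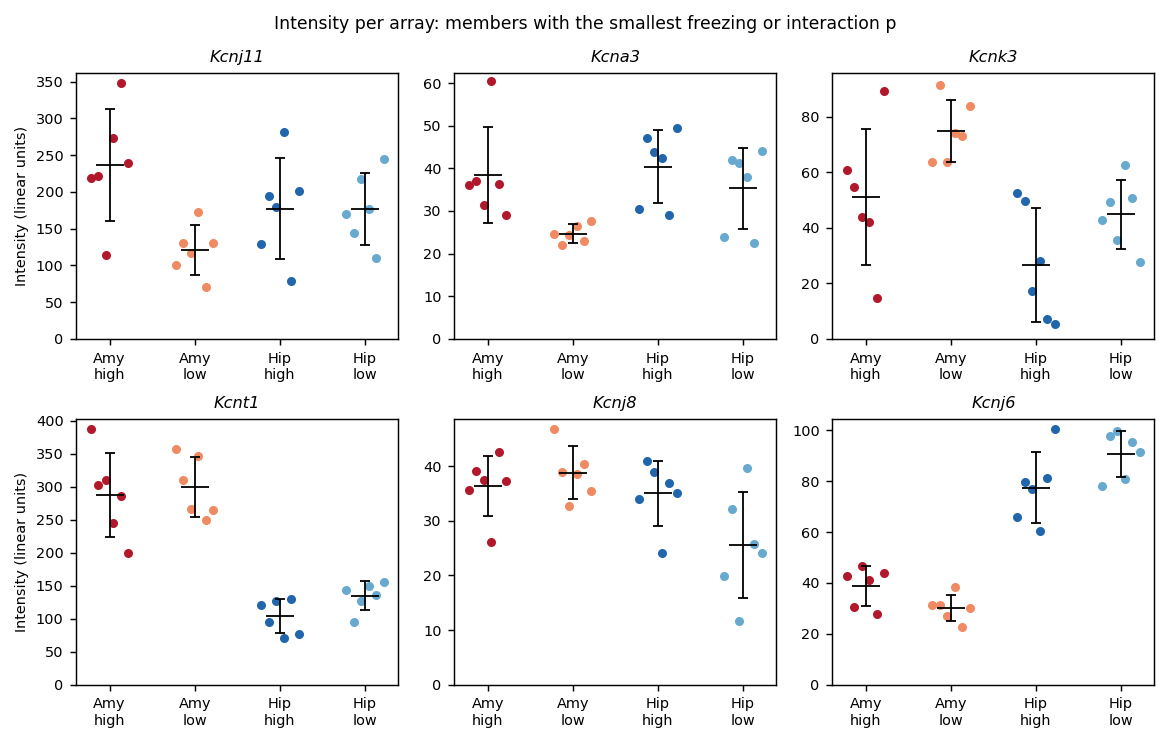
Linear intensity on each array (points), with the mean and SD of each group of 6, for 6 genes with the smallest p in a freezing comparison or the interaction, in high and low freezing amygdala (Amy) and hippocampus (Hip). Kcnj11 averages 236 ± 76.4 units in high and 120.5 ± 34.2 in low freezing amygdala, with ranges that overlap and similar means in both hippocampal groups, and no gene shown passed the test.

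The interaction asks whether the freezing difference of the amygdala differs from that of the hippocampus. None of the 60 genes passed with limma, against 0.0% of all genes, and 2 had an unadjusted p under 0.05, against 5.59% of all genes. These were Kcnj11, with a log2 interaction of 0.91 (adjusted p = 0.772), and Kcnj6, with 0.44 (adjusted p = 0.78). Kcnj6 averaged 38.8 ± 7.75 and 30.3 ± 5.20 units in high and low freezing amygdala, and 77.5 ± 13.9 and 90.6 ± 8.93 in high and low freezing hippocampus (SD, n = 6 each), so its freezing difference had opposite signs in the 2 regions. Kcnj8, Kcns2 and Kcnd2 followed with interactions of -0.39, 0.19 and -0.14, and none of the 3 passed.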

How the data were processed

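The data are 24 Affymetrix arrays with 1 linear intensity value per probe set, as the authors deposited them; the sources used here name no software for them. In the deposited values the intensity mean without the top and bottom 2% is 150 on every array, and medians lie between 36.85 and 43.58 units. Symbols were read from the annotation given for the platform: of 45101 probe sets, 34958 carry 1 symbol, 932 several and 9211 none here.

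Values were taken as log2(intensity + 16) without further normalization, since array medians spanned 0.172 on that scale. After leaving out 64 control probe sets and the dimmest 40% by mean log2(intensity + 16), 27022 probe sets remained. Their lowest mean intensity was 23.35 units, which is not itself the cutoff. limma was run on them with a mean for each group (version 3.58.1, R 4.3.3, intensity trend, 20 residual degrees of freedom, Benjamini-Hochberg adjustment, threshold 0.05). On simulated arrays the script was tested for recovery of planted changes. The number of arrays limits the precision.

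The genes, the partner list, the 12 marker lists and the tests were chosen with earlier results of these data known. Genes were named by rule: per channel class the 3 highest and 3 lowest regional differences that passed, per freezing comparison and interaction the 5 smallest p, the 6 partner genes with the largest regional difference, and genes whose probe sets disagree in sign. The other channel genes are named to account for all 82, with values chosen after they were seen. Alternatives were other offsets (1 and 64), normalization between arrays by quantiles or by their medians, a dim filter of 60% or none, a prior with no trend, fits within a region, array number as a block, averaging probe sets per gene, and dropping each array in turn. Promoter windows are from RefSeq (GRCm38.p6) and were joined by symbol only.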

Additional observations from a re-analysis of the deposited data

Results flagged for a closer look

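For each named gene in each group of 6 arrays, the highest or lowest array was set against the others by Dixon's gap ratio at its 95% critical value. Of 172 combinations of 43 genes and 4 groups, 11 had an array that far from the rest, 7 low and 4 high, and chance gives about 1 in 20.

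Among the channel genes, Kcna3 stood at 60.4 units on array 10 of the high freezing amygdala, while the other 5 lay between 29.12 and 37.07. Kcnn1 stood at 35.34 on array 3 of the low freezing amygdala (others 46.12 to 52.43). In the high freezing hippocampus, Kcnip2 stood at 745.3 on array 11 (others 903.6 to 969.9), Kcnc1 at 392.5 on array 12 (others 470.9 to 522.5) and Kcnj8 at 24.16 on array 10 (others 33.99 to 41). In the low freezing hippocampus, Kcnmb4 stood at 590.4 on array 2 (others 709.4 to 754.8). Among the partner genes, array 6 of the low freezing amygdala was low for both Cntn2, at 384 (others 549.4 to 647.2), and Sgk1, at 1089 (others 1779 to 2216). Fgf13 was high at 3823 on array 9 of the high freezing hippocampus (others 3342 to 3506) and at 3903 on array 2 of the low freezing hippocampus (others 3269 to 3489), and Dpp10 was high at 369.8 on array 4 of the low freezing hippocampus (others 244.7 to 277). The cause was not tested.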

How the results depend on the processing

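The count of channel genes that differed between the regions was 43 (17 higher, 26 lower in the amygdala), and it stayed between 38 and 46 under every alternative except leaving out the dimmest 60% of probe sets, which tested 39 genes and called 30, 9 of them higher and 21 lower. Centring arrays on their median gave 16 higher and 29 lower. It is not stated if same-numbered arrays of the 2 regions share a mouse. Their correlation cannot decide it, since deviations in 2 regions of 1 mouse need not go together. Deviations of same-numbered arrays from their group means correlated between -0.079 and 0.0865, 0 of 12 over 0.1. For 5 of 12 amygdala arrays the own number correlated best among the 6 hippocampal arrays of that freezing label. With the array number as a random block 43 genes passed and as a fixed block 44, and the freezing and interaction counts stayed at 0 with limma under both and under every other alternative run. Fits within a region give no regional difference, and leaving out the dimmest 60% left some dim named genes untested. Of 39 named regional differences, 36 kept their call in every setting that tested them. Kcnj8 lost it in 21, for example with quantile normalization (adjusted p = 0.161), with centring (0.180) and without any of 17 single arrays; it kept it without arrays 2 and 4 of the low and 8 and 9 of the high freezing hippocampus, and 3 and 6 of the low and 10 of the high freezing amygdala. Kcnn1 lost it without a filter (adjusted p = 0.0612), with the mean of its probe sets (0.387) and without arrays 4, 5 or 6 of the low or 7, 9, 10 or 12 of the high freezing hippocampus, 3 of the low or 9 or 10 of the high freezing amygdala, and Kcnh1 with the mean of its probe sets (adjusted p = 0.0600). Under the mean of probe sets, 2 differences that had not passed changed sign, the amygdala freezing difference of Kcnip2 to 0.0654 and the interaction of Kcns2 to -0.0387. The cause was not tested. Probe sets close to background limit the dim genes, whose folds depend on the offset: the log2 difference of Kcnk13 lay between 0.92 and 1.78.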
